A study of Mus musculus with 19 samples.

Results

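The clustered protocadherins were examined in the striatum of mice that carry mutant huntingtin. The genes were taken by symbol, as every gene whose name begins with Pcdha, Pcdhb or Pcdhg followed by a number or by a, b or c and a number. Of 58 such genes in the count table, 55 had 10 or more reads in at least 4 of the 19 mice and were kept. These 55 members comprised 12 genes of the alpha cluster, 22 of the beta cluster and 21 of the gamma cluster, out of 54232 genes counted, and all 55 were among the 18521 genes tested. In 50 of them every mouse had 10 or more reads, and the other 5 were Pcdha1, Pcdha5, Pcdha6, Pcdha8 and Pcdhb1.

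The mice were 6 months old, of the C57/BL/6 background, and comprised 7 wild-type (WT) animals and 4 animals of each knock-in genotype. KI-FL are HD140Q knock-in mice, in which the endogenous Htt gene carries an expanded CAG repeat and full-length mutant huntingtin is made. In the KI-96 line the same mutant allele was cut with CRISPR/Cas9 so that only a short N-terminal fragment with the repeat is made, and the KI-571 allele encodes a longer one. According to the study's methods the KI-96 and KI-571 lines were bred as heterozygotes, the zygosity of the KI-FL mice that were sequenced is not given in the sources used here, and whole dissected striatum was sequenced. The comparisons ask whether expression in the striatum differs between lines whose mutant alleles encode proteins of different length. On western blots the study saw a single mutant fragment in KI-571 brain, matching in size the smallest one of KI-FL brain. KI-96 brain also held a fragment of that size, and the study reported similar changes of gene modules in all KI lines.

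Clustered protocadherins are cell surface adhesion proteins of neurons. Each neuron switches on a few of the variable exons by choosing among promoters, and the resulting mixture of isoforms pairs only with the same mixture on another cell, which is how branches of a neuron recognise and avoid themselves. CTCF and cohesin loop distant enhancers to the chosen promoters, whereas DNA methylation and SMCHD1 silence the others. The C-type genes at the ends of the alpha and gamma clusters are expressed by most neurons rather than chosen at random, and Pcdhgc4 is needed for the survival of many neurons. In whole striatum, fewer cells expressing a gene and less RNA in each cell cannot be told apart.

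All members lie on the plus strand of chromosome 18 (GRCm38), with the alpha cluster at chr18:36930184-37187661, the beta cluster at chr18:37264938-37524479 and the gamma cluster at chr18:37661793-37841873. Every alpha transcript ends in the same 3 constant exon blocks of 59, 89 and 2712 bases, and every gamma transcript in 3 blocks of 59, 89 and 1971 bases. A median of 53.45% of the exon bases of an alpha gene and 44.7% of those of a gamma gene lay in exons of another clustered protocadherin, against 0% for a beta gene. A read on a constant exon belongs to many genes at once, and HTSeq leaves such reads out by default, so that the alpha and gamma values mostly reflect the variable exons. Antisense genes also cover part of some members, among them Pcdha12 (Gm10545), Pcdhga1 (Gm37118) and Pcdhgc3 (BC037039), and without a known strand setting their counts are uncertain. The 3 genes that were left out had few bases of their own or few reads. Pcdha4 had 404 exon bases outside other genes and 0 to 6 reads per mouse. Pcdhga10 had 0 such bases, or 2613 when exon bases under antisense genes were kept, and 0 reads in every mouse. What its reads say about the strand setting was not tested. Pcdha11 under the identifier ENSMUSG00000102206 had 0 to 7 reads. A gene with the same symbol, ENSMUSG00000007440, was a member and is given here by its identifier, since RefSeq calls the gene at that position Pcdha10.

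Between 12669809 and 26388542 reads per mouse fell on genes (median 18202412), so that a floor of 3 reads lay at 0.106 to 0.238 CPM, the counts scaled to library size that are used for all levels here. Htt was at 178 ± 9.8 CPM in WT animals (SD, n = 7), 186 ± 40.1 in KI-96, 124 ± 15.3 in KI-571 and 158 ± 17.5 in KI-FL mice (n = 4 each), and its level over the whole gene does not check the repeat or the truncation. KI-FL replicate 4 stood apart, with 3186 tested genes at 0 reads against at most 222 in any other mouse. KI-96 replicate 3 also stood apart, with 24.2% of its reads on no gene, the highest share of all mice. Xist, which is transcribed from the inactive X chromosome, was at 886 to 1610 CPM in the 4 KI-96 mice and at 0.913 to 5.05 CPM in the 4 KI-571 mice, and the labels do not give the sex of the animals. It was also high in WT replicate 1 at 1060 CPM and in KI-FL replicate 2 at 1210 CPM. Summed choroid plexus and ependyma markers (8 of 8 detected) ranged from 89.1 to 5390 CPM in KI-571, from 57.6 to 3060 in KI-FL, from 56.1 to 127 in KI-96 and from 75.7 to 454 in WT mice, and Folr1, Otx2 and Kcnj13 were at 0 in some animals. Summed cortical excitatory neuron markers (10 of 10 detected) ranged from 72.5 to 1150 CPM in WT, 71 to 185 in KI-96, 92.7 to 495 in KI-571 and 77.5 to 178 in KI-FL mice. The 15 striatal projection neuron markers were all detected, and their sums overlapped between the genotypes, at 6690 to 10600 CPM in WT, 6450 to 10100 in KI-96, 7710 to 9940 in KI-571 and 8200 to 9980 in KI-FL mice.

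Of the 5 C-type genes, Pcdhgc5, Pcdhgc3 and Pcdhac2 ranked 1, 2 and 5 among the 55 members in striatal level per length. To compare genes, the CPM of each was divided by the kilobases of exon that no other gene covers. Pcdhgc5, the last gene of the gamma cluster, was the most abundant at 18.1 ± 4.62 CPM per kb (SD, n = 19), followed by Pcdhgc3 at 11.8 ± 1.83, and the ranges of the pair over the mice overlapped. The place of Pcdhgc3 rests on the strand setting, since it was at 6.33 ± 0.986 CPM per kb and ranked 5 when exon bases under antisense genes were kept, while Pcdhac2 then ranked 4. Pcdhac2, the last gene of the alpha cluster, reached 8.37 ± 1.95 CPM per kb and supplied 50.2% of all alpha reads. The other C-type genes were lower, at 2.85 ± 0.792 CPM per kb for Pcdhgc4 and 0.675 ± 0.2 for Pcdhac1.

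Among the other members, the gamma genes stood highest. Pcdhgb6 reached 9.4 ± 2 CPM per kb and Pcdhga6 8.79 ± 2.11, and the gamma cluster as a whole ranged from 1.21 (Pcdhga1, its first gene) to 18.1 with a median of 5.07. Beta genes ranged from 0.243 in Pcdhb1, the first gene, to 4.9 in Pcdhb20 with a median of 2.32, and Pcdhb9 at 4.82 ± 0.985 and Pcdhb17 at 4.4 ± 0.784 lay close to Pcdhb20. Alpha genes other than Pcdhac2 were low, from 0.402 ± 0.377 in Pcdha8 to 2.38 ± 0.824 in Pcdha12, and the median of the cluster was 0.962. The first gene of each cluster was low in its cluster, at 0.57 CPM per kb for Pcdha1, 0.243 for Pcdhb1 and 1.21 for Pcdhga1. Across genes, the Spearman correlation of level with place was 0.24 in the alpha cluster (n = 12), 0.38 in the beta cluster (n = 22) and 0.25 in the gamma cluster (n = 21). These are descriptions over genes that share the same libraries.

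**Figure D1:**
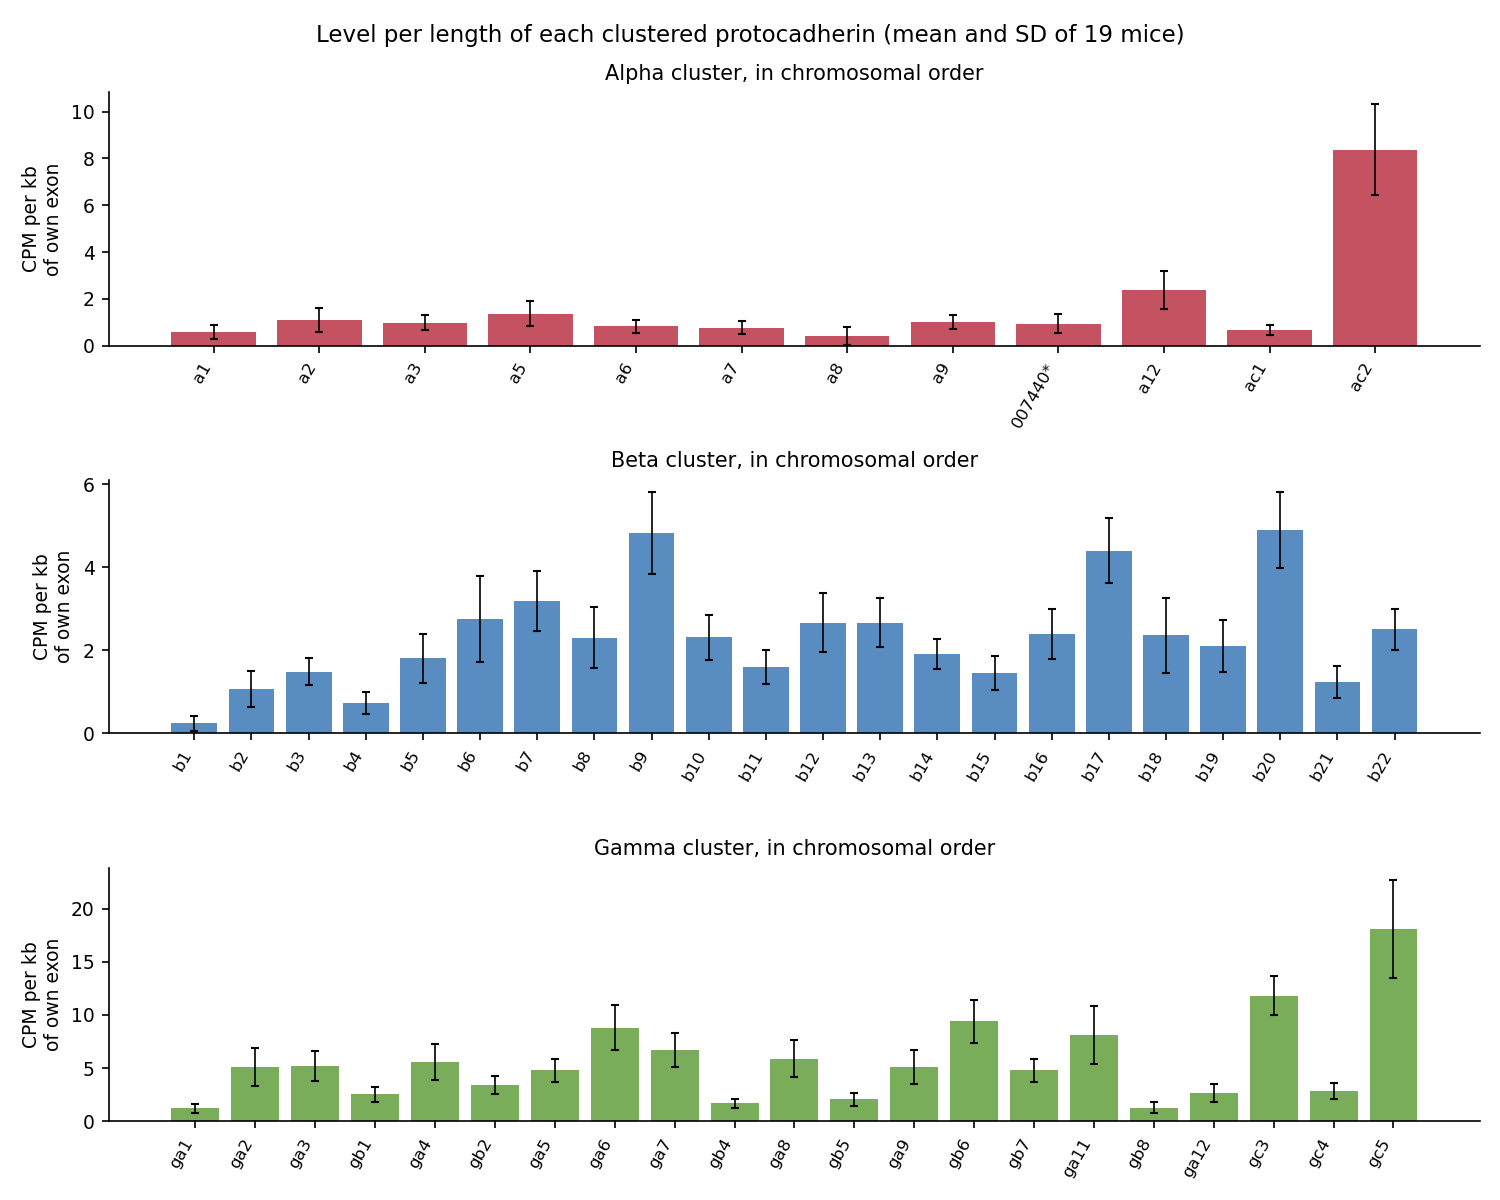
Mean level of each member in CPM per kilobase of its own exon (bars) with the SD over the 19 mice (error bars), one panel per cluster, each with its own scale and the genes in chromosomal order with the prefix Pcdh removed. The starred bar is ENSMUSG00000007440, and the tallest bars are Pcdhac2 at 8.37, Pcdhb20 at 4.9 and Pcdhgc5 at 18.1.

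The reads were divided between the 3 clusters in much the same way in each genotype. Of all member reads, alpha genes took 8.61% ± 0.826 in WT animals (SD, n = 7), 9.12% ± 0.774 in KI-96 animals, 8.23% ± 1.01 in KI-571 animals and 8.5% ± 0.761 in KI-FL animals (n = 4 each). Beta genes took 36.2% ± 2.79, 34.8% ± 1.8, 35.7% ± 3.51 and 36.5% ± 2.16 in the same order. Gamma genes took 55.1% ± 2.57, 56.1% ± 1.84, 56.1% ± 2.97 and 55% ± 1.47. For each cluster the ranges of the 4 genotypes overlapped.

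The total differed more on average. The 55 members together summed to 522 ± 56.7 CPM in WT and 520 ± 93.2 CPM in KI-571 mice, but to 668 ± 162 CPM in KI-96 and 668 ± 43.8 CPM in KI-FL mice. In the alpha cluster the KI-96 mice had 62.3, 59, 83.7 and 40.1 CPM (replicates 1 to 4), the KI-571 mice 53.3, 48.3, 39.1 and 31 CPM and the KI-FL mice 53.3, 59.3, 68 and 47.6 CPM, beside 36.7, 43.6 and 54.4 CPM as the lowest, median and highest of the WT mice. KI-96 replicates 1 to 3 thus lay above every WT mouse, and replicate 4 lay within the WT range.

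In the beta cluster the KI-96 mice had 251, 224, 277 and 169 CPM, the KI-571 mice 218, 173, 167 and 177 CPM and the KI-FL mice 241, 247, 244 and 243 CPM, beside 147, 188 and 224 CPM as the lowest, median and highest of the WT mice. All 4 KI-FL mice lay above every WT and every KI-571 mouse and close together. The gamma cluster gave 438, 363, 464 and 243 CPM in KI-96, 380, 281, 285 and 225 CPM in KI-571 and 344, 373, 414 and 340 CPM in KI-FL mice, beside 251, 288 and 347 CPM in WT mice. Of the KI-FL mice, replicates 2 and 3 lay above the WT range. No test was made on these sums, since the members were chosen with earlier results of these data known.

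**Figure D2:**
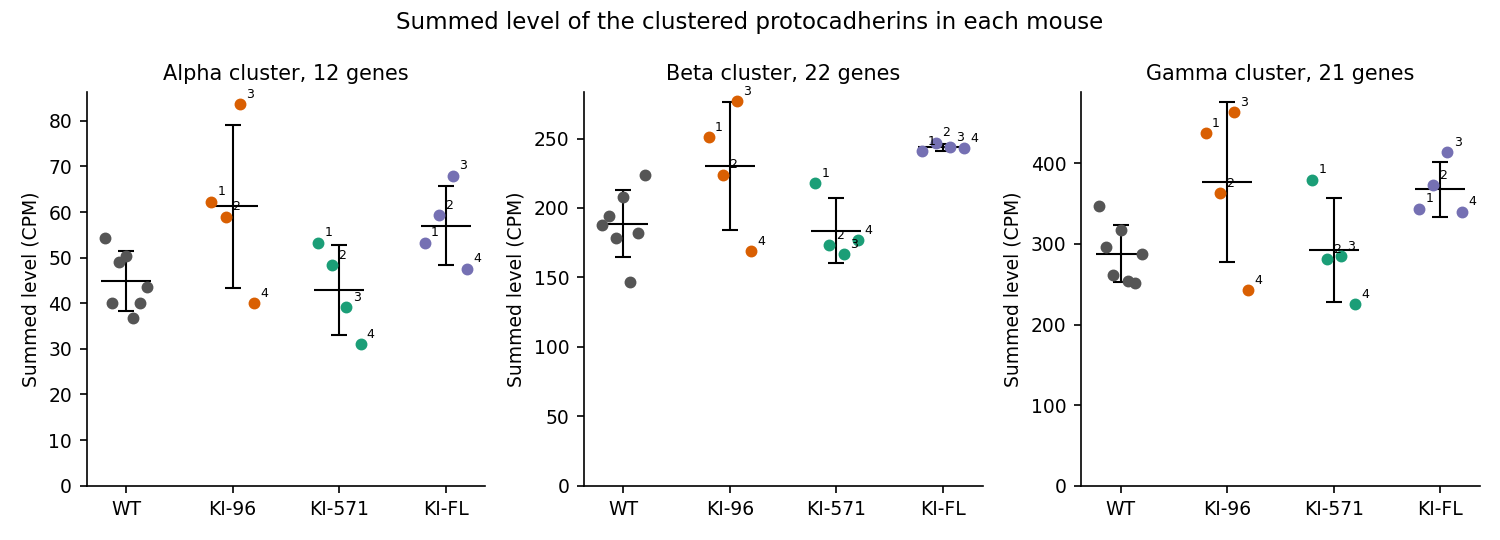
Summed CPM of the alpha, beta and gamma members (vertical axes from 0) in each mouse, by genotype, with the mean and SD as black bars and the replicate number beside each KI mouse. The 4 KI-FL mice sit between 241 and 247 CPM in the beta cluster, above all WT mice, and KI-96 replicate 4 sits below the other KI-96 mice in each panel.

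Within a genotype many members had their extreme value in the same mouse. KI-96 replicate 4 held the lowest KI-96 value of 44 of the 55 members and the highest of 0, and KI-96 replicate 3 held the highest of 36. Of the KI-571 mice, replicate 1 held the highest value of 38 members and replicate 4 the lowest of 24. Any single WT mouse held at most 17 of the highest values and any KI-FL mouse at most 18, whereas KI-FL replicate 4 held the lowest of 22 members and WT replicate 5 the lowest of 20. The same counts were not made over all genes, so whether these mice stand apart only in the members was not tested.

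In KI-96 against WT mice, 54 of the 55 members had a higher fitted level in KI-96, but no member passed the adjusted p threshold of 0.05 (edgeR quasi-likelihood F-test with Benjamini-Hochberg adjustment over all genes tested, smallest adjusted p = 0.564), and DESeq2 called 0. Over all genes 0.027% were called at that threshold by edgeR and 0.151% by DESeq2. The median log2 fold change was 0.50 in the alpha, 0.28 in the beta and 0.38 in the gamma cluster, against -0.02 over all genes, of which 47.2% were higher. At an unadjusted p under 0.05, 15 members were higher (3 alpha, 3 beta and 9 gamma) and 0 were lower, where 4.36% of all genes were higher and 3.09% lower. Among the gamma genes these were 8 of the 11 of the Pcdhga type and 0 of the 7 of the Pcdhgb type, together with Pcdhgc5.

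Pcdhga5, the gamma gene with the smallest p, had 16.7, 15, 16.9 and 10.6 CPM in the KI-96 mice, beside 7.98, 10.9 and 12.7 CPM as the lowest, median and highest of the WT mice. Replicates 1 to 3 lay above every WT mouse and replicate 4 did not, and the log2 fold change was 0.51 ± 0.17 (SE, adjusted p = 0.564, edgeR). In Pcdhgc5 replicates 1 to 3 again lay above every WT mouse, with 112, 102, 111 and 57.9 CPM in KI-96, beside 57.5, 71.3 and 94.2 CPM in WT mice, and a log2 fold change of 0.42 ± 0.18 (adjusted p = 0.639, edgeR). Pcdhga9 had 24.6, 22.8, 24.8 and 12.1 CPM, beside 12.1, 14.1 and 21.2 CPM in WT mice (log2 fold change 0.48 ± 0.19, adjusted p = 0.629, edgeR).

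Of the alpha genes, Pcdha8 had the largest fold change in KI-96 mice at 1.77 ± 0.59 on the log2 scale (adjusted p = 0.564, edgeR). It was near the floor in several animals, with 2.09, 0.916, 4.12 and 0.703 CPM in KI-96 and 0.177, 0.425 and 1.38 CPM as the lowest, median and highest in WT mice, and replicate 3 gave the largest value. The abundant Pcdhac2 had 29.1, 30, 41.3 and 18.7 CPM beside 18.3, 22.4 and 27.5 CPM in WT mice (log2 fold change 0.37 ± 0.18, adjusted p = 0.669, edgeR). Of the beta genes, Pcdhb22, the last of the cluster, had the smallest p, with 17.8, 18.9, 23.9 and 12.4 CPM beside 12.1, 13.9 and 15.8 CPM in WT mice (log2 fold change 0.41 ± 0.15, adjusted p = 0.629, edgeR). Here too replicates 1 to 3 lay above every WT mouse.

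The 15 members at an unadjusted p under 0.05 rested on the mice chosen. They became 1 without KI-96 replicate 3, 6 without replicate 1 and 25 without replicate 4, and 3 with WT replicates 1 to 4 alone as controls. The share of all genes in these settings was not counted. With the log2 CPM of Xist as a covariate 1 was left, and the median of the alpha cluster was 0.29, and since each KI-96 animal but only 1 of 7 WT animals had a high level of Xist, the parts of genotype and of Xist can hardly be told apart.

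In KI-FL against WT mice, 46 of the 55 members had a higher fitted level in KI-FL. No member passed the adjusted p threshold, which 0.194% of all genes did, and Pcdha2 came nearest to it. The medians were 0.46 in the alpha, 0.36 in the beta and 0.33 in the gamma cluster, against -0.03 over all genes, of which 46.1% were higher. At an unadjusted p under 0.05, 19 members were higher (4 alpha, 7 beta and 8 gamma) and 0 were lower, where 7.89% of all genes were higher and 8.84% lower. With WT replicates 1 to 4 alone as controls the 19 became 10, and the share of all genes there was not counted. Oligodendrocyte and astrocyte markers were lower on average in the same KI-FL mice, while microglia markers were not. The oligodendrocyte markers were lower in every KI genotype, with mean sums of 11500 CPM in WT, 9890 in KI-96, 10300 in KI-571 and 9140 in KI-FL mice. Summed microglia markers were at 275 to 386 CPM in KI-FL beside 247 to 353 CPM in WT mice. They were at 256 to 337 CPM in KI-96 and 276 to 334 CPM in KI-571 mice. Summed oligodendrocyte lineage markers (9 of 9 detected) were at 8500 to 9830 CPM in KI-FL beside 9210 to 13100 CPM in WT mice, with 7350 to 12000 in KI-96 and 8820 to 12200 in KI-571 mice. Summed astrocyte markers (8 of 8 detected) were at 3750 to 4110 CPM in KI-FL beside 3960 to 4750 CPM in WT mice, with 4050 to 4810 in KI-96 and 4230 to 4820 in KI-571 mice, and their part in the result was not tested.

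Pcdha2, the second gene of the alpha cluster, had 4.05, 3.96, 5.46 and 5.55 CPM in the 4 KI-FL mice, beside 1.48, 2.35 and 2.7 CPM as the lowest, median and highest of the WT mice. The groups did not overlap, and the log2 fold change was 1.17 ± 0.25 (SE, adjusted p = 0.0511, edgeR). Of 30 other settings it passed the threshold in 5 and did not in 25, where the adjusted p ran from 0.00128 to 0.504 and the log2 fold change from 1.04 to 1.25. It passed with an adjusted p of 0.00128 in DESeq2, 0.0348 when only the KI-FL and WT mice were fitted and 0.0338 when genes with fewer than 10 reads in any mouse were left out. It also passed without KI-96 replicate 3 (adjusted p = 0.0341, edgeR) or without KI-571 replicate 4 (0.0423). It did not pass with WT replicates 1 to 4 alone as controls (adjusted p = 0.43, edgeR), or with Xist (0.0822), the cortical marker score (0.0549) or 1 surrogate variable (0.133) as a covariate.

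Pcdhga4 had 12.1, 10.8, 12.1 and 14.3 CPM in KI-FL mice, beside 5.11, 6.89 and 9.81 CPM in WT mice, and again the groups did not overlap. Its log2 fold change was 0.79 ± 0.18 (adjusted p = 0.0605, edgeR), with an adjusted p of 0.00866 in DESeq2. In edgeR it passed without KI-96 replicate 3 (0.049) or replicate 4 (0.0453), or with only the KI-FL and WT mice fitted (0.0405). It did not pass 0.05 in any other setting, among them WT replicates 1 to 4 alone and each of the covariates. Pcdhb9, the beta gene with the smallest p, had 21, 19.6, 20.4 and 16.4 CPM beside 11.5, 13 and 17.4 CPM, with replicates 1 to 3 above every WT mouse and a log2 fold change of 0.53 ± 0.13 (adjusted p = 0.0744, edgeR). DESeq2 called 6 members in this comparison, namely Pcdha2, Pcdhb5, Pcdhb9, Pcdhb17, Pcdhga3 and Pcdhga4, and 2.75% of all genes. With only the KI-FL and WT mice fitted, edgeR also called 6 members, among 1.89% of all genes.

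The abundant Pcdhgc5 had 92.3, 97.6, 119 and 103 CPM in KI-FL mice beside 57.5, 71.3 and 94.2 CPM in WT mice, with 3 of the 4 KI-FL mice above the WT range and a log2 fold change of 0.53 ± 0.18 (adjusted p = 0.152, edgeR). Pcdhga9 had 21.9, 20.3, 26.9 and 24.3 CPM beside 12.1, 14.1 and 21.2 CPM (log2 fold change 0.63 ± 0.19, adjusted p = 0.119, edgeR). The 3 most abundant beta genes were Pcdhb17, Pcdhb20 and Pcdhb14. Pcdhb17 had 26.9, 20.5, 25.1 and 26.5 CPM beside 14.2, 19 and 22.6 CPM, and Pcdhb20 had 22.9, 18.9, 19.2 and 21.6 CPM beside 11.9, 15 and 20.4 CPM. Pcdhb14 had 15.3, 22.1, 20.2 and 15.4 CPM beside 12.8, 18 and 18.9 CPM. In each of them some KI-FL mice lay within the WT range.

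Of the 12 alpha genes 4 had a negative fold change in KI-FL mice. Pcdha3 was lower on average with 20 to 50 reads in each KI-FL mouse. It had 1.59, 1.74, 2.53 and 1.31 CPM, beside 1.71, 2.75 and 3.13 CPM as the lowest, median and highest of the WT mice. In KI-FL replicate 4, the mouse with many genes at 0, Pcdha1, Pcdha5 and Pcdhb1 were at 0 reads. In the other 3 KI-FL mice Pcdha5 had 3.05 to 5.07 CPM and the WT mice had 1.92, 2.95 and 4.07 CPM as lowest, median and highest. Without KI-FL replicate 4 and KI-96 replicate 3, 51 of the 55 members were higher in KI-FL than in WT mice.

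In KI-571 against WT mice the members were spread around no difference. Of the 55, 26 had a higher and 29 a lower fitted level in KI-571, with medians of -0.03 in the alpha, -0.05 in the beta and 0.04 in the gamma cluster, against -0.01 over all genes. No member passed the adjusted p threshold, which 0.0324% of all genes did (smallest adjusted p = 0.59, edgeR), and DESeq2 called 0 members and 0.551% of all genes. At an unadjusted p under 0.05 there were 0 members higher and 1 lower, where 3.89% of all genes were higher and 3.83% lower. This was Pcdhgc4, with 7.59, 5.59, 9.31 and 6.61 CPM in KI-571 mice beside 7.08, 9.86 and 15.9 CPM in WT mice. The groups overlapped, and the log2 fold change was -0.47 ± 0.21 (adjusted p = 0.59, edgeR). The 1 lower member became 0 without WT replicate 4 or KI-571 replicate 2 or 4, and 2 without WT replicate 6, KI-571 replicate 1 or 3, or KI-FL replicate 2, while 1 member was higher without WT replicate 7. Shares of all genes without these mice were not counted. The summed choroid plexus markers reached their highest value, 5390 CPM, in this genotype, and their part in these values was not tested.

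**Figure D3:**
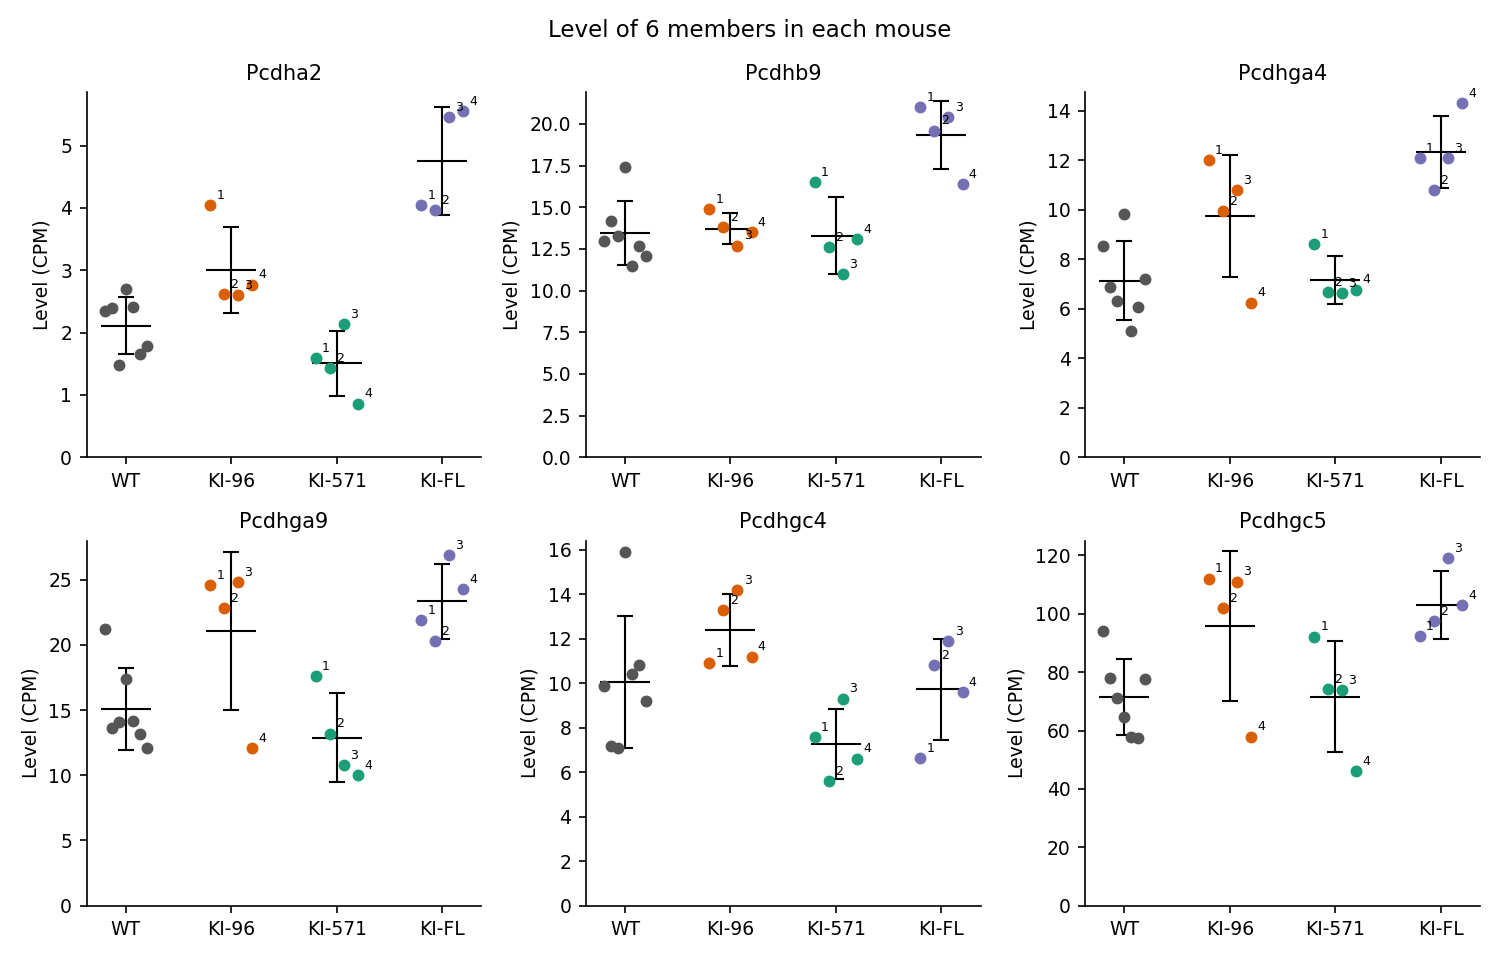
CPM of Pcdha2, Pcdhb9, Pcdhga4, Pcdhga9, Pcdhgc4 and Pcdhgc5 in each mouse (vertical axes from 0), by genotype, with the mean and SD as black bars and the replicate number beside each KI mouse. The 4 KI-FL mice lie above all WT mice for Pcdha2 (3.96 to 5.55 CPM) and Pcdhga4 (10.8 to 14.3 CPM), and KI-96 replicate 4 lies well below the other KI-96 mice for Pcdhga9 and Pcdhgc5.

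The KI genotypes were then compared with each other. These comparisons share mice with those against WT and are not independent of them. In KI-571 against KI-FL mice 45 of the 55 members were lower in KI-571, with medians of -0.52 in the alpha, -0.44 in the beta and -0.24 in the gamma cluster, against 0.02 over all genes. At an unadjusted p under 0.05, 17 members were lower (4 alpha, 8 beta and 5 gamma) and 0 were higher, where 4.23% of all genes were lower and 4.67% higher. One member, Pcdha2, passed the adjusted p threshold, which 0.0864% of all genes did.

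Pcdha2 had 1.59, 1.43, 2.14 and 0.859 CPM in KI-571 mice against 4.05, 3.96, 5.46 and 5.55 CPM in KI-FL mice. The groups did not overlap, and the level was lower in KI-571 by a log2 fold change of -1.66 ± 0.30 (SE, adjusted p = 0.0258, edgeR). The adjusted p was 2.85e-05 in DESeq2, which called 0.475% of all genes here, and 0.445 when only these 8 mice were fitted. It was past the threshold whichever WT or KI-96 mouse was left out, but not without KI-571 replicate 1 (0.0785), replicate 2 (0.156) or replicate 4 (0.109), nor without KI-FL replicate 1 (0.0527), replicate 2 (0.0664), replicate 3 (0.066) or replicate 4 (0.061). The fold change itself ran from -1.88 to -1.47 over the omission of single mice.

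The next member by p was Pcdhga9, with 17.6, 13.2, 10.8 and 9.99 CPM in KI-571 against 21.9, 20.3, 26.9 and 24.3 CPM in KI-FL mice (log2 fold change -0.86 ± 0.22, adjusted p = 0.238, edgeR). The groups did not overlap for this gene, nor for Pcdhgc5, which had 92.2, 74.2, 73.9 and 46.1 CPM in KI-571 mice against 92.3 to 119 CPM in KI-FL mice. Pcdhb6 had 8.45, 5.95, 6.46 and 6.61 CPM in KI-571 against 11.5, 20.7, 12.1 and 8.62 CPM in KI-FL mice (log2 fold change -0.94 ± 0.28, adjusted p = 0.322, edgeR).

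In KI-96 against KI-571 mice all 55 members were higher in KI-96 (54 with the size factors of DESeq2, 49 without KI-96 replicate 3 and 46 with Xist as a covariate), with medians of 0.60 in the alpha, 0.33 in the beta and 0.40 in the gamma cluster, against -0.01 over all genes. This was not particular to the clusters, since all 11 tested protocadherins outside them were also higher in KI-96, with a median of 0.375. No member passed the adjusted p threshold, which 0.0054% of all genes did (smallest adjusted p = 0.512, edgeR), and DESeq2 called 0 members and 0.189% of all genes. At an unadjusted p under 0.05, 14 were higher and 0 lower, where 3.14% of all genes were higher and 2.38% lower. The 14 became 5 without KI-96 replicate 3, 27 without KI-96 replicate 4 and 23 without KI-571 replicate 1, and 3 with Xist as a covariate. Shares of all genes in these settings were not counted, so the counts cannot be set beside a background. Every KI-96 mouse and no KI-571 mouse had a high level of Xist. The parts of genotype and of Xist thus cannot be told apart in this comparison, with or without the covariate. Leaving out WT replicate 7, KI-96 replicate 1, or KI-571 replicate 2, 3 or 4 gave 7 to 9, again without a count over all genes. Pcdhgc4 was among the 14, with 10.9, 13.3, 14.2 and 11.2 CPM in KI-96 against 5.59 to 9.31 CPM in KI-571 mice, without overlap (log2 fold change 0.77 ± 0.23, adjusted p = 0.528, edgeR).

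Between KI-96 and KI-FL mice the members went both ways. There were 27 higher and 28 lower in KI-96 (30 higher with the size factors of DESeq2), with medians of 0.11 in the alpha, -0.10 in the beta and 0.05 in the gamma cluster. No member passed the adjusted p threshold, and neither did any other gene (0%, edgeR). At an unadjusted p under 0.05 there were 0 members higher and 3 lower, where 5.13% of all genes were higher and 3.77% lower, and DESeq2 called 0 members and 0.205% of all genes after adjustment. The 3 were Pcdha2, Pcdhb5 and Pcdhb9, and for Pcdhb9 the KI-96 mice, at 14.9, 13.8, 12.7 and 13.5 CPM, all lay below the KI-FL mice, at 16.4 to 21 CPM (log2 fold change -0.49 ± 0.15, adjusted p = 0.406, edgeR). The 3 became 1 without KI-96 replicate 2 or 4 or KI-FL replicate 3. Without KI-96 replicate 4, 6 members were higher in KI-96 at an unadjusted p under 0.05, and 1 or 2 were without KI-571 replicate 4 or KI-FL replicate 1, 2 or 3. Here too the shares of all genes were not counted.

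The fold changes were then read along the chromosome. In KI-96 against WT mice they showed little order, with a Spearman correlation of fold change with place of -0.07 in the alpha, 0.3 in the beta and -0.21 in the gamma cluster. In KI-FL against WT mice the correlation was 0.27, 0.03 and -0.47. In the alpha cluster the median fold change was -0.18 over the first 6 genes and 0.62 over the last 6. Among the first 6 were Pcdha1 and Pcdha5, with 0 reads in KI-FL replicate 4, and Pcdha3, with reads in every KI-FL mouse. In the beta cluster the median fold change was 0.38 over the first 11 and 0.34 over the last 11. In the gamma cluster the first 5 members in order, Pcdhga1, Pcdhga2, Pcdhga3, Pcdhgb1 and Pcdhga4, were all among the 8 at an unadjusted p under 0.05, and the median fold change was 0.41 over the first 10 genes and 0.26 over the last 10. In KI-571 against WT mice the correlation was 0.01, 0.46 and 0.07. Values are over 12, 22 and 21 genes that share libraries, and the run of 5 genes was picked out after its values were seen.

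**Figure D4:**
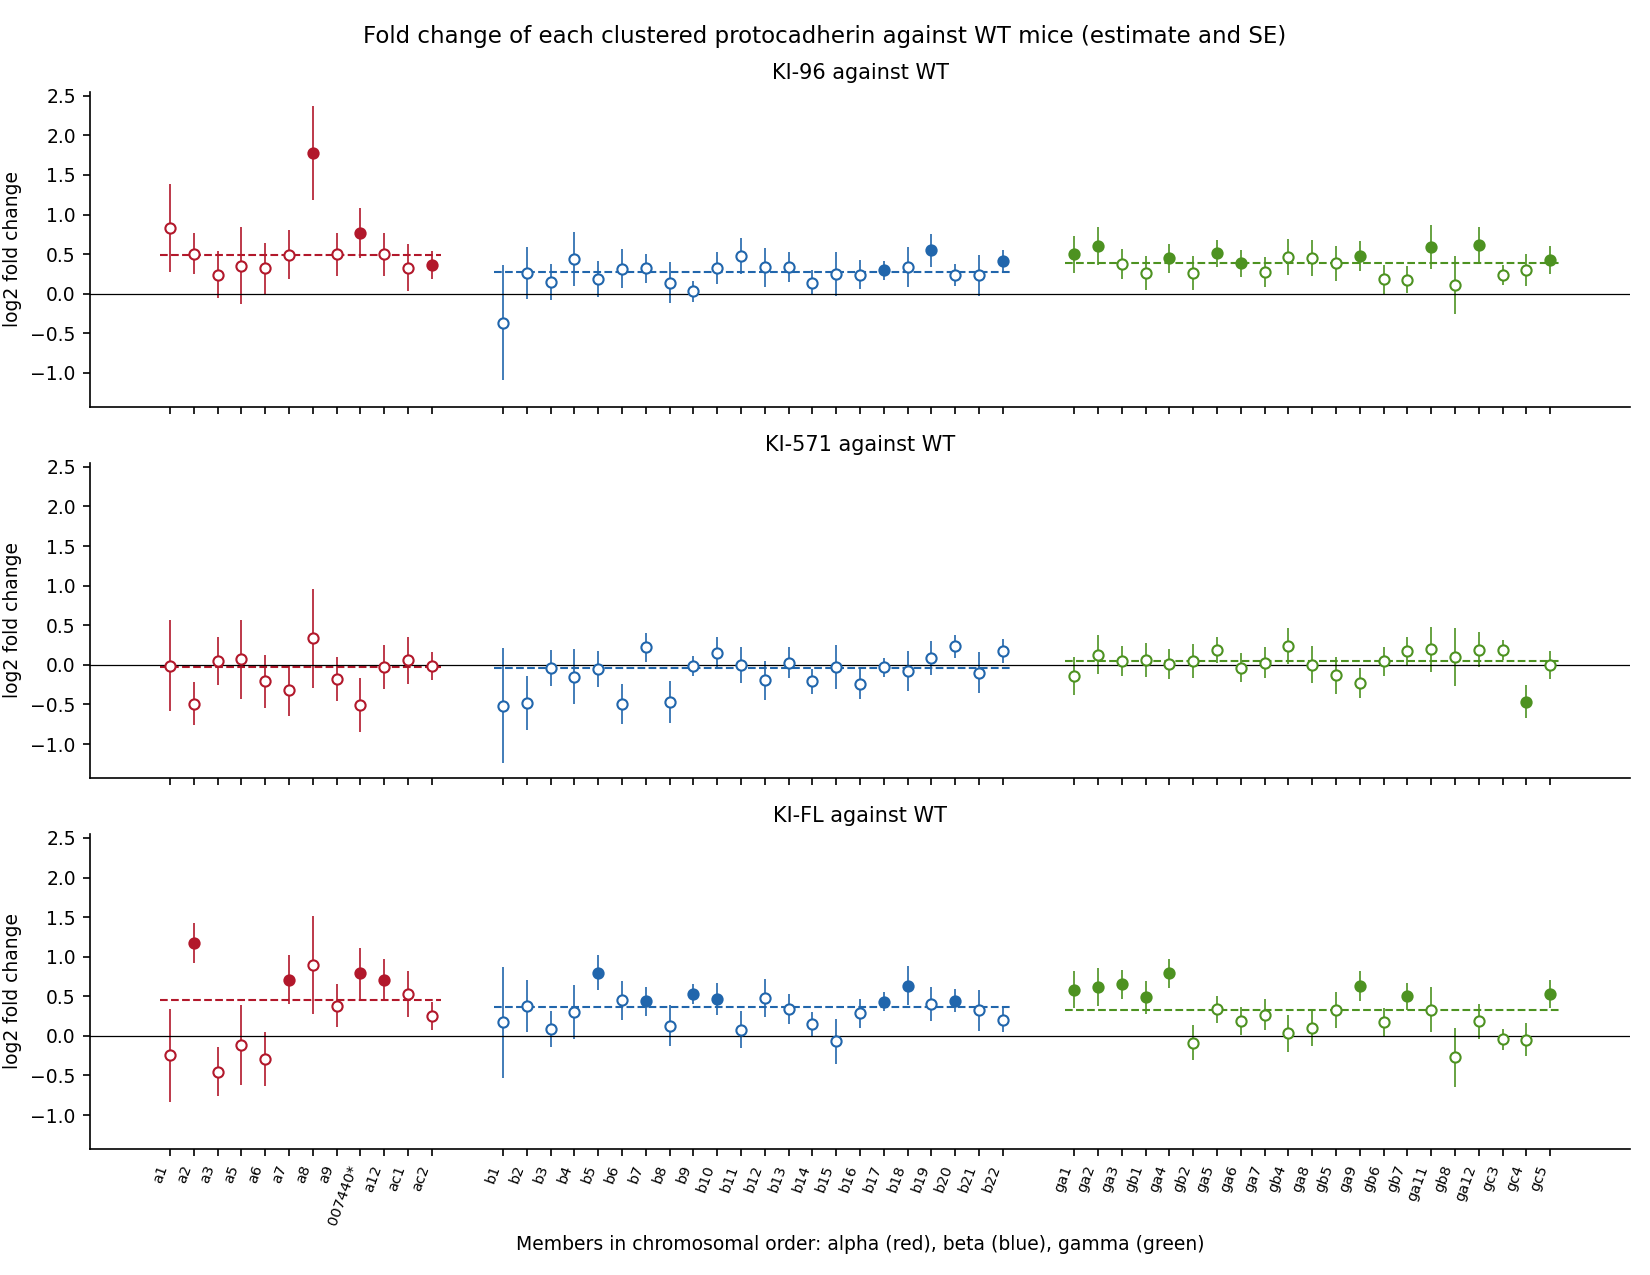
Log2 fold change of each member against WT mice (points) with its SE (bars), in chromosomal order with the prefix Pcdh removed, for KI-96 (top), KI-571 (middle) and KI-FL (bottom), where filled points are at an unadjusted p under 0.05 and dashed lines are cluster medians. The medians lie at 0.50, 0.28 and 0.38 in KI-96, near 0 in KI-571 and at 0.46, 0.36 and 0.33 in KI-FL mice, and the starred label is ENSMUSG00000007440.

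The 5 C-type genes had a median fold change of 0.33 in KI-96, 0.00 in KI-571 and 0.25 in KI-FL against WT mice, and none passed the test. Whether they differed from each other was not tested. In KI-FL mice Pcdhgc5 was at 103 ± 11.3 CPM beside 71.6 ± 13.1 in WT mice, whereas Pcdhgc3 had 16.9, 18.9, 23.2 and 19.3 CPM beside 16.2, 19.5 and 23.6 CPM as the lowest, median and highest of the WT mice, and Pcdhgc4 was at 9.74 ± 2.27 beside 10.1 ± 2.98. The KI-FL and WT values of the last pair thus overlapped throughout, although these genes lie next to Pcdhgc5 and share its constant exons.

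The median biological coefficient of variation, the spread that edgeR estimates beyond counting error, was 0.304 in the alpha, 0.247 in the beta and 0.229 in the gamma cluster. It was 0.202 over all 18521 genes tested and 0.214 over the 13935 other genes between the lowest and the highest member in level. That wide range was not matched to the level of each cluster, and the alpha genes other than Pcdhac2 were low. Among the members the coefficient was lowest in the beta cluster at 0.138 and reached 0.709 there.

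None of the genes that control or act with the clusters passed the test. Of 20 genes for insulators, cohesin and silencing, 12 were higher and 8 lower in KI-96, 9 higher and 11 lower in KI-571, and 12 higher and 8 lower in KI-FL than in WT mice, with medians of 0.05, 0.00 and 0.06. Ctcf, the insulator that marks the promoters, was at 74.8 ± 5.35 CPM in WT, 79.4 ± 5.46 in KI-96, 74.9 ± 8.57 in KI-571 and 84.6 ± 12.7 in KI-FL mice. The cohesin subunit Rad21 was at 128 ± 6.91, 123 ± 7.84, 119 ± 8 and 122 ± 8.1 CPM, and Smchd1 at 46.1 ± 6.07, 46 ± 7.46, 42.6 ± 1.7 and 43.7 ± 3.5 CPM, in the same order. The histone methyltransferase Ehmt2 had the smallest p of this list in each comparison, with log2 fold changes of 0.22, 0.22 and 0.31 and adjusted p of 0.653, 0.59 and 0.135 (edgeR).

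Of 20 partners that act downstream of the adhesion, 15 were higher and 5 lower in KI-96, 8 higher and 12 lower in KI-571, and 15 higher and 5 lower in KI-FL than in WT mice, with medians of 0.08, -0.03 and 0.07. Wasf1, a subunit of the WAVE complex that drives actin branching, was at 228 ± 24.7 CPM in KI-FL beside 176 ± 13.4 CPM in WT mice, and the groups did not overlap, at 205 to 263 against 153 to 191 CPM (log2 fold change 0.38 ± 0.10, adjusted p = 0.08, edgeR). The smallest p in KI-96 was that of Wasf3 (log2 fold change 0.19, adjusted p = 0.653, edgeR), and in KI-571 that of Cyfip1 (-0.18, adjusted p = 0.566), both of the same complex.

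Of 11 tested protocadherins outside the clusters, 7 were higher and 4 lower in KI-96, 2 higher and 9 lower in KI-571, and 5 higher and 6 lower in KI-FL than in WT mice, with medians of 0.05, -0.27 and -0.01. Pcdh9 was at 78.3 ± 11.5 CPM in KI-571 and 81.8 ± 5.06 CPM in KI-FL beside 110 ± 16 CPM in WT mice, with log2 fold changes of -0.48 ± 0.12 (adjusted p = 0.124, edgeR) and -0.42 ± 0.12 (adjusted p = 0.0995). Pcdh10 was at 310 CPM in KI-96 and 247 CPM in WT mice on average (log2 fold change 0.33 ± 0.13, adjusted p = 0.629, edgeR). Between the KI genotypes these genes went the same way as most clustered ones. All 11 were higher in KI-96 than in KI-571 mice, and 5 (45.5%) were so at an unadjusted p under 0.05, beside 3.14% of all genes. In KI-571 against KI-FL mice 9 were lower and 2 higher, with a median of -0.06. Whether these genes and the clustered ones differ in their response was not tested.

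Genes around the clusters were examined as well. Within 500 kb on either side 30 genes were tested, of which 18 were higher and 12 lower in KI-96, 24 higher and 6 lower in KI-571, and 15 higher and 15 lower in KI-FL than in WT mice. Their medians were 0.03, 0.11 and 0.02, and none passed the test. Of all genes tested, 47.2%, 48.3% and 46.1% had a higher fitted level in the same comparisons. At an unadjusted p under 0.05, 2, 3 and 5 of the 30 were higher (6.67%, 10% and 16.7%) and 0 were lower. Over all genes 4.36%, 3.89% and 7.89% were higher at that level, and 3.09%, 3.83% and 8.84% were lower. Diaph1, which encodes an actin-nucleating formin and lies next to the gamma cluster (chr18:37843601-37935476), had the smallest adjusted p in KI-FL mice. It was at 72.5 ± 5.46 CPM in WT, 87.6 ± 11.4 in KI-96, 87.9 ± 18 in KI-571 and 96.2 ± 14 in KI-FL mice, with log2 fold changes of 0.27, 0.28 and 0.41 and adjusted p of 0.649, 0.542 and 0.106 (edgeR). Pcdh1 was at 230 ± 15.7 CPM in KI-96 beside 185 ± 29.4 CPM in WT mice (log2 fold change 0.32 ± 0.13, adjusted p = 0.639, edgeR). Both were named after their values were seen. Taf7, which lies between the beta and gamma clusters on the opposite strand (chr18:37640491-37644204), was at 7.22 ± 0.776 CPM in WT, 6.67 ± 0.546 in KI-96, 7.44 ± 0.646 in KI-571 and 7.05 ± 0.868 in KI-FL mice, and the genotypes overlapped. Slc25a2, next to it, had too few reads to be tested.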

How the data were processed

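Striatal RNA sequencing of 19 mice was used, with genotype and replicate number taken from the labels. The deposited table holds raw counts of reads for each gene. According to the study's methods adapters were trimmed with BBduk, short reads discarded, and the rest aligned to GRCm38 with STAR and counted with HTSeq. Versions, annotation and strand setting are not given in the sources used here, and reads where genes overlap on either strand may be split or lost. The labels name neither the sacrifice batch used as a covariate in the study nor the WT sample it removed, so no batch term was fitted and all 7 WT mice were kept. The labels do not say that replicates of a genotype were separate litters, and p-values measure the spread between these mice. The 5 HTSeq summary lines were left out of library sizes, and 4 columns that belong to none of the samples were not used.

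Counts were normalized by TMM, filtered with filterByExpr (minimum count 10, minimum total 15) and fitted in a single edgeR 4.0.16 model (R 4.3.3) over all 19 mice whose only term was genotype. All contrasts between genotypes were tested by the quasi-likelihood F-test with Benjamini-Hochberg adjustment over 18521 genes at 0.05. Only member rows are printed. The procedure was also run on simulated counts. Positions and exons came from GENCODE mouse release 21, on the same build. The members, the gene lists and the comparisons were chosen with earlier results of these data known. Genes named are those past the threshold, the C-type genes, the 3 most abundant others and the first and last member of each cluster, and the smallest p per cluster and comparison with WT, likewise for the lists. Others were named after their values were seen. Alternatives were DESeq2 1.42.0, its size factors, other filters, fewer mice, and covariates (Xist, cortical markers, 1 variable from sva 3.50.0, replicate number).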

Additional observations from a re-analysis of the deposited data

Results flagged for a closer look

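In 7 cases a single mouse stood away from the other 3 of its genotype by more than the 95% limit of Dixon's test on log2 CPM, among 104 groups of mice examined for the 23 members named by rule and the 3 cluster sums. Chance alone flags about 1 in 20 such groups. KI-96 replicate 4 was low for Pcdhga9, at 12.1 CPM where the other KI-96 mice had 22.8 to 24.8, and for Pcdhgc5, at 57.9 CPM where the others had 102 to 112. KI-96 replicate 1 was high for Pcdha2, at 4.04 CPM where the others had 2.6 to 2.77.

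Of the KI-FL mice, replicate 4 was at 0 CPM for Pcdha5 where the others had 3.05 to 5.07, and replicate 3 was high for Pcdha12, at 8.64 CPM where the others had 5.15 to 5.55. Of the KI-571 mice, replicate 3 was low for Pcdhb14, at 11.2 CPM where the others had 15 to 15.5, and replicate 1 was high for Pcdhga4, at 8.6 CPM where the others had 6.63 to 6.77. The causes were not tested.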

How the results depend on the processing

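No member passed the adjusted p threshold in KI-96 against WT, KI-571 against WT, KI-96 against KI-FL or KI-96 against KI-571 mice under any of the alternatives run. In KI-FL against WT mice the count of 0 became 6 with DESeq2 and 6 with only the mice of the 2 groups. In these settings 509 and 336 genes in all were called, against 36 before. The count was 1 with at least 10 reads required in every mouse, where 55 of 13672 genes were called. At an adjusted p under 0.1 it was 3, and the count over all genes was not taken there. It ran from 0 to 2 when single mice were left out, where 0 to 159 genes in all were called. Without KI-96 replicate 3 and KI-FL replicate 4 together it was 1, where 90 of 18770 genes were called. That pair was chosen after seeing the data. In KI-571 against KI-FL mice the count of 1 became 2 with DESeq2, which called 88 genes in all against 16, and 0 with no filter, with only the 2 groups, with WT replicates 1 to 4 alone, with the cortical marker score or 1 surrogate variable as a covariate, and without that pair of mice. It ran from 0 to 1 when single mice were left out, where 1 to 21 genes in all were called.

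The cluster medians moved by less than the spread between WT mice in all settings but 2. That spread, the SD of a cluster's median log2 CPM, was 0.179 (alpha), 0.291 (beta) and 0.237 (gamma). It is wide beside the medians, of which the beta median in KI-96 against WT mice was 0.28. A median could thus fall to near 0 and still count as unmoved, and the check says little about stability. The alpha median in KI-96 against WT mice was 0.285 with Xist as a covariate and 0.286 with replicate number as a replicate block, where it was 0.495 without either. Whether equal replicate numbers mark paired mice was not tested and is not given in the labels. Correlations of same-numbered mice ran from -0.128 to 0.29 over 24 pairs, with a median of -0.005, the same as in other pairs. Of the 24 pairs 5 were over 0.1, and 6 of 16 mice were closest to their own number. With the block 0 members passed in KI-571 against KI-FL mice, the adjusted p of Pcdha2 in KI-FL against WT mice was 0.504, and the gamma median in KI-FL against WT mice was 0.13. Leaving out single mice gave medians from 0.376 to 0.554 (alpha), 0.198 to 0.4 (beta) and 0.27 to 0.575 (gamma) in KI-96, from 0.392 to 0.515, 0.276 to 0.407 and 0.221 to 0.36 in KI-FL, and from -0.176 to 0.07, -0.152 to 0.009 and -0.13 to 0.181 in KI-571 mice.

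Of the fold changes of named members against WT that are not printed because their unadjusted p was 0.05 or more, 7 of 13 in KI-96, 11 of 22 in KI-571 and 5 of 14 in KI-FL mice changed sign under at least 1 of 30 alternatives. Counts of members at an unadjusted p under 0.05 depended on the mice as given above, and the share of all genes in those settings was not counted. The members with the lowest median counts were Pcdhb1, with 0 to 35 reads per mouse, and Pcdha8, with 2 to 76. The causes were not tested.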
